A study of Mus musculus with 3 samples.

Results

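The genes described here are the ligands, receptors and modifiers of the Notch pathway, the Hes, Hey and Id proteins, the neural basic helix-loop-helix (bHLH) transcription factors and the Sox family, measured in mouse retina. They were chosen by gene symbol alone, as every non-control probe set whose single symbol in the platform annotation began with one of these family names. The rule gave 61 probe sets of 45 genes, out of 12422 non-control probe sets and 8251 named genes. The data come from Affymetrix U74Av2 arrays, on which several short probes for a transcript form a probe set and yield 1 signal. All 3 samples are total RNA of neural retina from wild-type mice at postnatal day 10 (P10), on a mixed background of 129/SvEv and C57BL/6, and each sample pools 3 to 4 mice whose retinas were taken between 1 and 2 pm. The mice were wildtype littermates of Rp1-/- animals, which were not analysed here. All 3 samples form 1 group, so no comparison between conditions could be made, and the number of arrays limits the precision. The pools are numbered 1 to 3 only to name them. Rp1 appears in 2 of the 3 sample titles (pools 2 and 3), but every description says wild type, and the descriptions were followed.

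Notch receptors are cleaved when a Delta or Jagged ligand on a neighbouring cell binds them, and the released fragment joins the DNA-binding protein Rbpj to switch on Hes and Hey repressor genes. These repressors hold back proneural bHLH activators such as Neurog2, which pair with E proteins to drive neuronal differentiation, while Id proteins lack a basic region and take E proteins out of use. In the retina the pathway keeps progenitors from becoming neurons and later marks Müller glia, and Sox factors act at both ends, with Sox2 in progenitors and glia and Sox4 and Sox11 in newborn neurons.

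Signals are in the deposited linear units. A probe set was counted as above background on an array when its signal exceeded a limit of 427, 507 and 373 in pools 1, 2 and 3, which is the 90th percentile over 85 probe sets for 70 genes of liver, pancreas, muscle, germ cells and further tissues other than retina. A signal under the limit was read as not above background, not as absence of the transcript. Because the limits differ between arrays, a like signal can be above the limit in 1 pool and under it in another. Probe sets differ in how brightly they bind, so levels of single genes were compared between pools within a probe set. The background limit and the summed marker signals do join different probe sets. In such sums the brightest genes weigh most. In whole retina, fewer cells of a type and less RNA per cell cannot be told apart.

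The pools differed in lens RNA and in some retinal markers. The summed signal of 7 lens genes was 80982, 13725 and 218451 in pools 1, 2 and 3, and 4 of the 7 were above the limit on all arrays. That of 4 rod genes was 32797, 36571 and 57811, and that of 6 Müller glia genes was 13818, 13214 and 19335. Of the rod genes, Gnat1, Sag and Pde6b were highest in pool 3, but Nrl was lowest there, at 518.5, 672 and 494. Of the Müller glia genes, Rlbp1, Clu, Apoe and Dkk3 were highest in pool 3. Glul was lowest there, at 1040, 1492 and 785, and Vim was on no array above the limit. For the Actb control, signal at the 3′ end over that at the 5′ end gave 1.20, 1.44 and 1.69, and for the Gapdh control the same ratio gave 0.947, 0.885 and 0.926, so only the Actb ratio was highest in pool 3. None of 4 measured genes of cycling progenitors, Mki67, Top2a, Cdk1 and Fgf15, was above the limit on any array. Their summed signal was 348, 364 and 349.

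Of the 61 probe sets, 15 were above the limit on all 3 arrays (24.6%), 7 on 1 or 2 arrays and 39 on none (63.9%). Over all non-control probe sets these shares were 28.2% on all arrays, 13.6% on 1 or 2 and 58.2% on none, so the family as a whole was measured about as often as the array in general. With each gene represented by its probe set of highest mean, 14 of 45 genes were above the limit throughout, against 34.6% of all named genes, and 24 on no array, against 49.9%. Those 14 genes were Dlk1, Mfng, Rfng, Hes1, Hes6, Hey1, Id2, Id3, Id4, Neurod1, Neurod4, Sox2, Sox4 and Sox13.

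**Figure D1:**
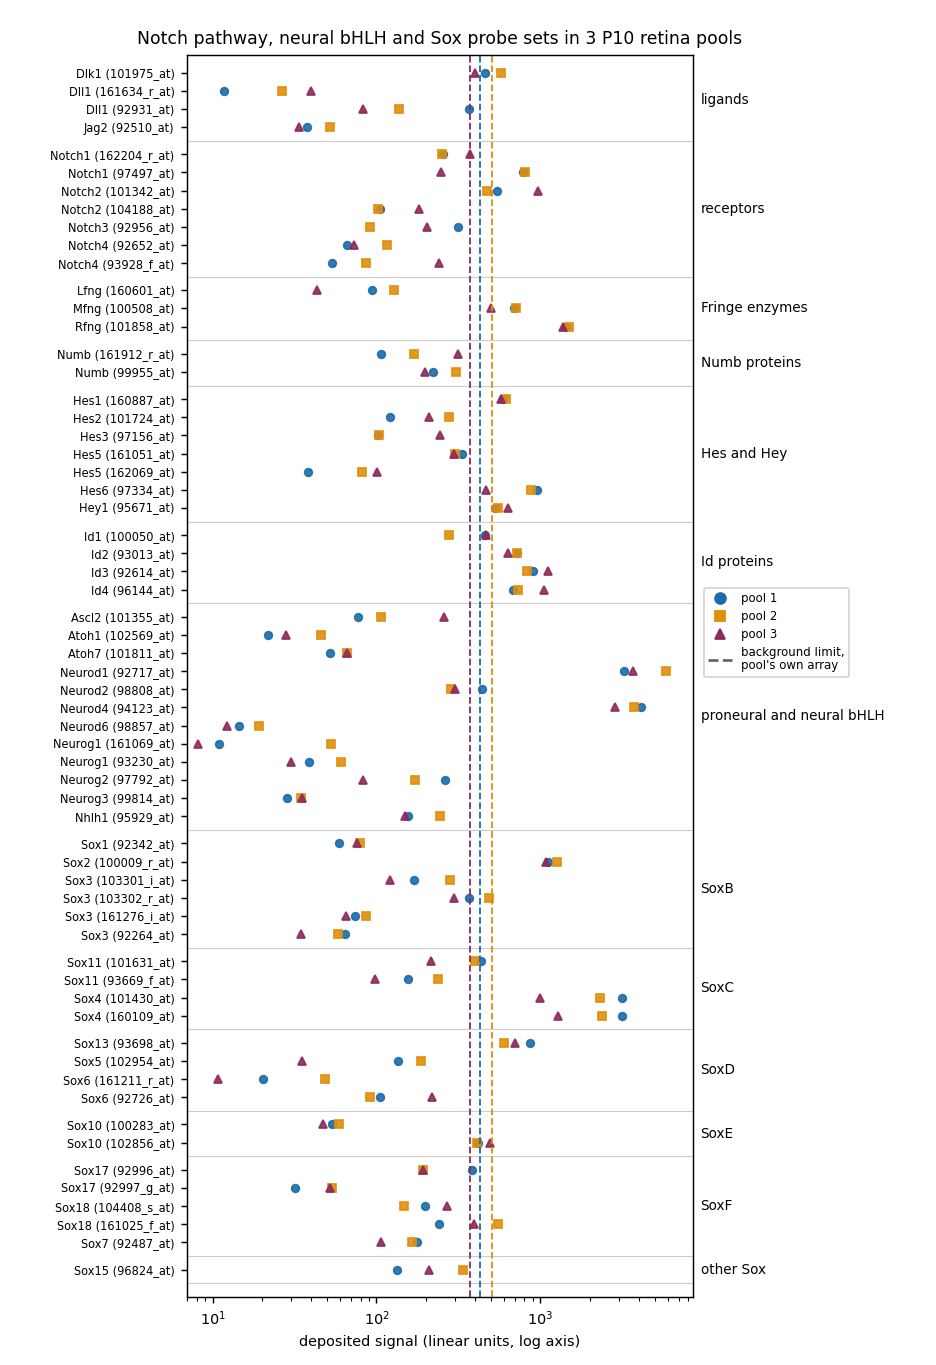
Deposited signal of all 61 probe sets (log axis) in pool 1 (circles), pool 2 (squares) and pool 3 (triangles), grouped by role, with the background limit of each array as a dashed line. Neurod1, Neurod4 and both Sox4 probe sets lie right of all limits, and both Sox4 sets are lowest in pool 3.

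Among ligands, Dlk1 alone was above the limit on every array, with 459, 573 and 398 in pools 1, 2 and 3. Dlk1 encodes a Delta-related membrane protein without the domain by which Delta and Jagged activate Notch. Dll1, a Delta ligand, has 2 probe sets, neither above the limit on any array. The brighter, 92931_at, read 365, 137 and 83.3, and the other, 161634_r_at, read 11.7, 26.7 and 39.7. Their orders over the pools were opposite, both at signals that cannot be told from background. Jag2, a Jagged ligand, read 37.5, 52.3 and 33.5 and was likewise not above it.

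No receptor was above the limit on all arrays. Notch1, the receptor best known for keeping retinal progenitors undifferentiated, read 785, 808 and 248 in pools 1, 2 and 3 on probe set 97497_at. Pools 1 and 2 were thus above the limit and pool 3 below it, so pool 2 exceeded pool 3 at least 2.17-fold. The second Notch1 set, 162204_r_at, was under the limit throughout, at 254, 251 and 371. Notch2, a receptor also made in glia and vessels, read 542, 472 and 963 on 101342_at, above the limit in pools 1 and 3. The 472 of pool 2, under the limit of 507 there, exceeds the limits of pools 1 and 3. The second Notch2 set was under the limit throughout, at 105, 103 and 182. The second Notch1 set was highest in pool 3, where 97497_at was lowest. The second Notch2 set had the order of 101342_at. Because both second sets were under the limit, these orders were not counted. Notch3, at 313, 91.1 and 205, and Notch4, with 65.9, 116 and 72.8 on one set and 53.2, 86.6 and 241 on the other, were not above background.

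Fringe enzymes extend the sugars on Notch and so tune which ligand it answers. Rfng was among the steadiest members, with 1444, 1490 and 1366 in pools 1, 2 and 3, a mean of 1433 ± 62.8 (SD, n = 3). Mfng read 688, 713 and 498, above the limit throughout and lowest in pool 3. Lfng read 94.1, 129 and 43.4 and was not above background. Numb, an adaptor that lowers Notch at the membrane, was not above it on either probe set, at 220, 304 and 199 on 99955_at and at 106, 170 and 313 on 161912_r_at.

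The Hes and Hey repressors are the direct readout of Notch in many tissues. Hes1, a repressor of proneural genes made in progenitors and Müller glia, read 594, 619 and 574 in pools 1, 2 and 3, a mean of 595 ± 22.6 (SD, n = 3). The SD of its log2 signal, 0.055, was the smallest of the 18 members above the mean limit. Hey1, also a target of Notch and prominent in vessels, read 526, 553 and 632, with pool 3 highest. Hes6 is the exception in function, since it opposes Hes1 and accompanies neuronal differentiation. Its 3 pools gave 953, 872 and 466, a 2.05-fold range with pools 1 and 2 close together and pool 3 below both. Hes5, a Notch target in glia and progenitors, was steady but under the limit, at 332, 303 and 296 on 161051_at, and its second set read 38.0, 81.2 and 101. Hes2, at 122, 279 and 210, and Hes3, at 103, 103 and 243, were not above background.

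RefSeq promoters (GRCm38.p6, the 250 bases before each annotated start) were available for 34 of the 45 genes, as 44 promoters. The core of the Rbpj binding motif, GTGGGAA on either strand, was present in 3 of the 44, those of Hes5, Lfng and Sox15, and in 5.42% of all 32851 promoters. The promoters of Hes1 and Hey1 were not analysed here. Hes5 holds it in both orientations, beginning 226 and 83 bases before the start. The E-box CAGCTG, a palindrome bound by proneural bHLH dimers, was present in 9 of the 44 promoters and in 13.0% of all. Hes6 has an annotated start at each of 2 positions, and both promoters hold 1 CAGCTG. A second E-box, CAGATG, the type that Neurod factors favour, was searched on both strands and found in 6 of the 44 and in 14.4% of all. The core that Sox proteins bind, ACAATG on either strand, was found in 8 of the 44 and in 10.7% of all. No motif searched overlapped another in the promoters shown. The promoters of Hes5, for the Rbpj core, and of Hes6, for the E-box, are shown 5′ to 3′ on the gene's strand, Hes5 from chr4:154960673-154960922 (+) and Hes6 from chr1:91413223-91413472 (-), with capitals marking matches on either strand to the Rbpj core, to either E-box and to the Sox core. A match is a description of letters and not evidence of binding in these samples.
Hes5: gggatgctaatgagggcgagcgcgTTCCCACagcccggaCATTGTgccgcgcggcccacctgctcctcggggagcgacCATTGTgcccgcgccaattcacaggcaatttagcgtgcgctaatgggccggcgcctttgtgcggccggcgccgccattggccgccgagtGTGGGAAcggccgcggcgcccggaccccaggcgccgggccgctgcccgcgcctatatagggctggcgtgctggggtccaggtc
Hes6: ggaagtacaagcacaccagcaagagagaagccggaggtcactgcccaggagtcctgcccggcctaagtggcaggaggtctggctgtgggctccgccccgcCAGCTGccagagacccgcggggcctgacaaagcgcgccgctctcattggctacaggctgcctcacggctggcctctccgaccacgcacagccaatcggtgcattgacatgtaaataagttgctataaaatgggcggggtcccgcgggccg

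Id proteins were measured most completely, with 3 of 4 genes above the limit on all arrays and Id1 on 2. Id3 read 896, 831 and 1116 in pools 1, 2 and 3. Id4 read 677, 731 and 1048. Both Id3 and Id4, which glial cells make, were thus highest in pool 3. Id2, the Id gene most tied to neurons, was nearly level, at 721, 717 and 631. Id1 read 462, 278 and 469 and was under the limit in pool 2, a limit of 507 that its signals in pools 1 and 3 do not reach either. The summed Müller glia signal was also highest in pool 3, although Glul was lowest there. So was the summed endothelial signal, at 1647, 1615 and 2685, although only Kdr of its 5 genes was above the limit throughout. The members Hes1 and Sox2, also made in Müller glia, were lowest in pool 3, within ranges of only 1.08-fold and 1.17-fold. The part of Müller glia and endothelial cells in the Id signals was not tested.

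Of 11 genes for proneural and neural bHLH activators, Neurod1 and Neurod4 were above the limit on all arrays and 8 genes were on none. Neurod1, which photoreceptors need to survive and amacrine cells to form, read 3245, 5806 and 3685 in pools 1, 2 and 3, a mean of 4245 ± 1369 (SD, n = 3). Neurod4, also called Math3, which helps specify bipolar and amacrine cells, read 4106, 3745 and 2848, a mean of 3567 ± 648 (SD, n = 3). Both stayed far above the limits, Neurod1 high in pool 2 and Neurod4 low in pool 3. Neurod2, made in subsets of amacrine cells, exceeded the limit only in pool 1, at 438, against 284 in pool 2 and 300 in pool 3. Neurog2, a proneural factor of progenitors, was under the limit at 261, 172 and 82.7. Atoh7, which makes progenitors competent to become ganglion cells, was dim and even, at 52.3, 65.7 and 66.5. Both were thus not above background on any array. Ascl2 (76.7, 106 and 260) and Nhlh1 (157, 246 and 150) were also below the limits. Atoh1, Neurod6, Neurog1 and Neurog3 read at most 60.9 on any array.

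Among SoxB genes only Sox2 was above the limit throughout, with 1119, 1270 and 1085 in pools 1, 2 and 3. Sox2 marks progenitors, Müller glia and cholinergic amacrine cells, and its SD of log2 signal was 0.12. Its only probe set has the suffix _r_at, used by the array maker where probe selection rules were relaxed. Sox3 has 4 probe sets and none was above the limit on any array, the brightest at 368, 484 and 296. Sox1, a factor of lens fibre cells and of neural progenitors, was not above background, at 58.7, 79.4 and 76.0, including pool 3 where lens genes were highest.

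Of the SoxC genes, Sox4 was above the limit throughout and Sox11 in 1 pool. Sox4, an activator of neuronal genes in newborn neurons, read 3168, 2308 and 991 in pools 1, 2 and 3 on probe set 101430_at. Its second set, 160109_at, read 3131, 2375 and 1280. Both sets were highest in pool 1 and lowest in pool 3, and their ranges were 3.20-fold and 2.45-fold. Sox11, its closest relative, read 432, 399 and 216 on 101631_at and was above the limit only in pool 1, with a second set under it throughout, at 156, 237 and 98.6. Of the 14 member genes with several probe sets, Sox4 was the only one with every set above the limit on all arrays. The Sox4 promoter from RefSeq (GRCm38.p6, chr13:28953700-28953949, minus strand, 5′ to 3′) is shown for the gene with both sets above the limit throughout. It holds the E-box CAGCTG, marked in capitals and beginning 211 bases before the start. The promoters of Dll1, Hes6, Id2, Lfng, Neurog3, Sox6 and Sox11 also hold it, among them genes with a narrow range such as Id2 and genes not above background.
Sox4: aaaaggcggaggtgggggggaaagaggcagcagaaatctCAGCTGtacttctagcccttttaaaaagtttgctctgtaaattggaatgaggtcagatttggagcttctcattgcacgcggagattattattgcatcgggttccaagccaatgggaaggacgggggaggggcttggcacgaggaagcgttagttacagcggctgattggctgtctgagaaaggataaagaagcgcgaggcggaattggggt

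Other Sox families were mostly under the limits. Sox13, a SoxD gene, read 859, 600.4 and 701, above the limit throughout and highest in pool 1. Its relatives Sox5 (135, 187 and 35.0) and Sox6 (105, 91.4 and 219 on the brighter set) were not above background. Sox10, which oligodendrocytes and neural crest cells make, read 415, 409 and 494 on 102856_at, above the limit only in pool 3. That limit, 373, is the lowest, and the Sox10 signals of pools 1 and 2 exceed it too. The second Sox10 set read 53.2, 59.3 and 47.4. Of 4 measured genes of oligodendrocytes and astrocytes, Mbp was above the limit in pool 1 and Mog, Mag and Gfap were on no array. The SoxF genes of vessel cells, Sox7, Sox17 and Sox18, were above the limit on an array only for Sox18, in pools 2 and 3, at 242, 552 and 393 on a set with the suffix _f_at, which can match several family members. The second Sox18 set, 104408_s_at, was under the limit throughout, at 197, 148 and 268. Sox7 read 178, 166 and 107, and the brighter Sox17 set read 382, 192 and 193. Sox15 read 134, 337 and 210 and was on no array above it.

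**Figure D2:**
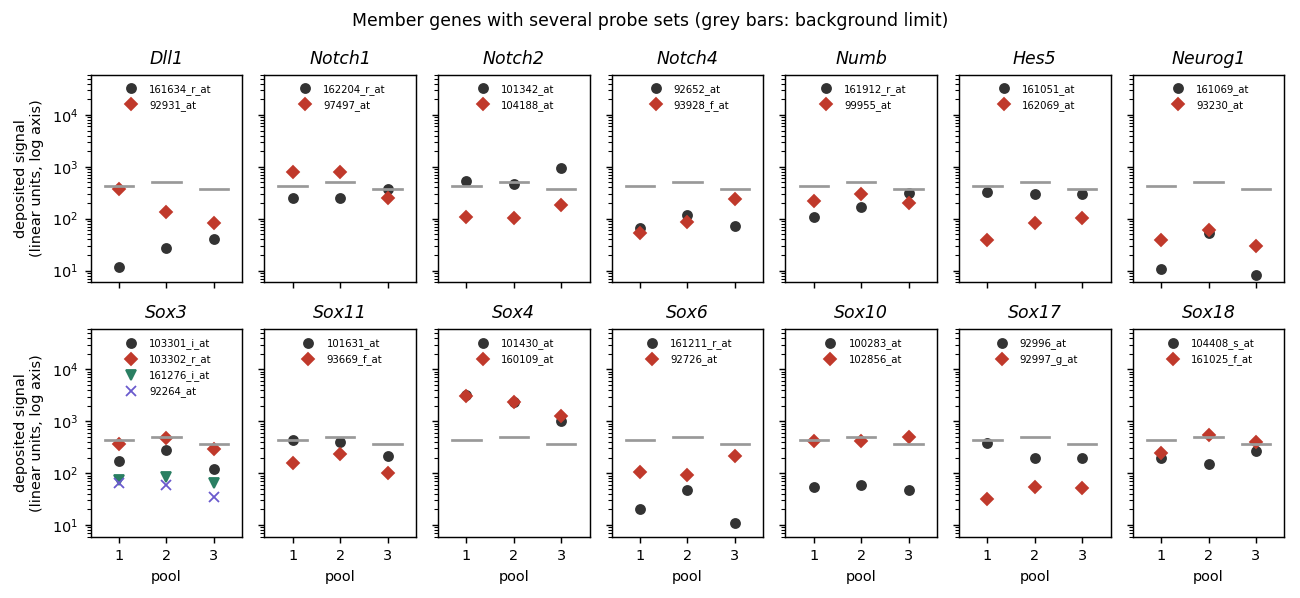
Deposited signal (log axis) in pools 1 to 3 for the 14 member genes with several probe sets, one symbol for each probe set, with grey bars at the background limit of each array. Both Sox4 sets lie above every limit and are lowest in pool 3, whereas one Notch1 set reads 785, 808 and 248 and the other 254, 251 and 371, under every limit.

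The spread between pools was summarised for the 18 probe sets whose mean exceeded the mean limit of 436. Their median SD of log2 signal was 0.27, against 0.26 over all 4302 such probe sets, and their median range was 1.43-fold, against 1.40-fold. Highest and lowest pool lay over 1 log2 unit (2-fold) apart in 5 of the 18, the sets of Notch1, Notch2 and Hes6 and both of Sox4, against 10.8% of all such probe sets. For Notch2 the lowest signal was under its limit, which leaves a range of at least 1.90-fold, and with signals under the limit raised to it the count was 4. Among the 15 above the limit on all arrays this held for 3, both Sox4 sets and Hes6, against 6.69% of all. This range rested on pool 3. Without pool 3 none of 17 probe sets had it, against 3.83% of all, without pool 1 it was 3 of 19, against 6.29%, and without pool 2 it was 4 of 19, against 4.57%. The median SD without pool 3 was 0.090, against 0.20 over all probe sets, although Neurod1 differed between pools 1 and 2 by 0.84 on the log2 scale and Sox13 by 0.52. Without pool 1 the median SD was 0.35, against 0.23 over all.

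**Figure D3:**
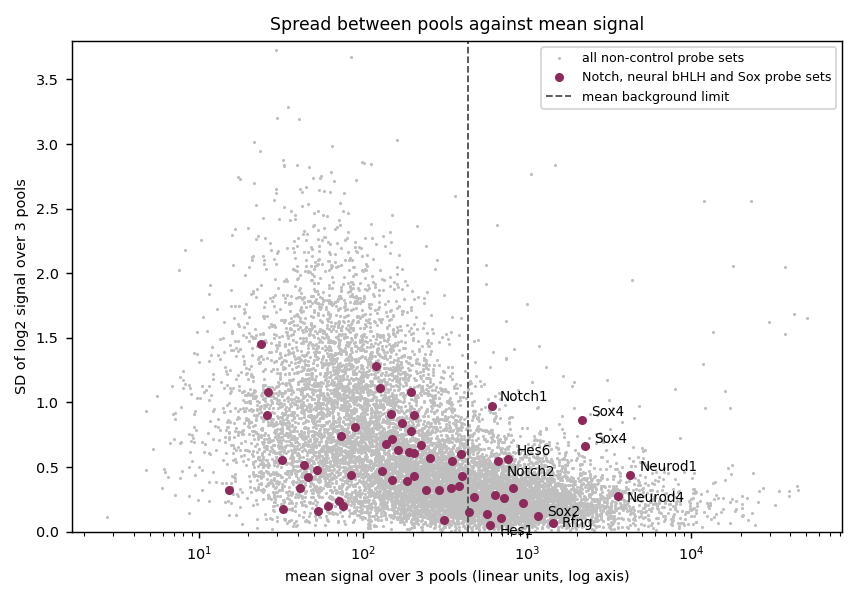
SD of log2 signal over the 3 pools against mean signal (log axis) for all 12422 non-control probe sets (grey) and the 61 members (purple), with the mean limit of 436 as a dashed line. Hes1 and Rfng lie near the bottom of the cloud, and both Sox4 sets and Notch1 lie above members of like signal.

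Pool 3 was lowest for 11 of the 18 probe sets (61.1%), those of Dlk1, Notch1, Mfng, Rfng, Hes1, Hes6, Id2, Neurod4, Sox2 and both of Sox4. Over all probe sets above the mean limit the share lowest in pool 3 was 36.4%. Pool 3 was highest for 5 of the 18, Notch2, Hey1, Id3, Id4 and Sox10, against 32.3% of all. For Rfng, Hes1, Id2 and Sox2 the whole range was at most 1.17-fold, so their order carries little weight. The same holds for Hey1 and Sox10, with ranges of 1.20-fold and 1.21-fold. The order pool 1 over pool 2 over pool 3 was found for Hes6, Id2, Neurod4 and both Sox4 sets, 5 of the 18, against 17.1% of all. The median of log2 signal minus the mean over the pools was 0.0042, 0.073 and -0.11 in pools 1, 2 and 3 for these members, against 0.026, -0.0054 and -0.016 over all 4302. Lens, rod and Müller glia sums and the Actb end ratio were highest in pool 3, although the rod gene Nrl and the Müller glia gene Glul were lowest in it. The Gapdh end ratio was highest in pool 1. The ganglion and amacrine, bipolar, endothelial and pigment epithelium lists also had their highest median deviation in pool 3. The list of oligodendrocytes and astrocytes had its lowest there. In the former lists Prkca was lowest in pool 3, Slc6a9 and Tek were highest in pool 1 and Tyrp1 in pool 2. Their other genes were highest in pool 3. Tyr, Tyrp1, Cdh5 and Tek were on no array above the limit. The part of these markers and of the end ratios in the members' differences was not tested.

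**Figure D4:**
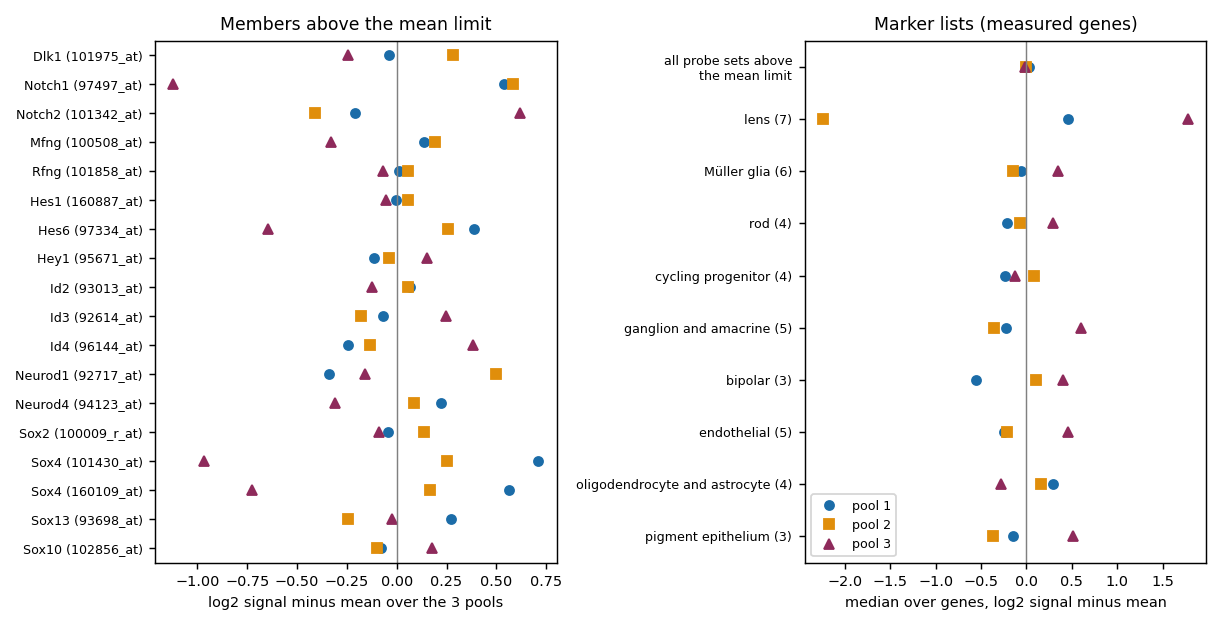
Log2 signal minus its mean over the 3 pools for the 18 probe sets above the mean limit (left) and the median of the same quantity over the measured genes of each marker list (right), by pool. Sox4, Hes6 and Notch1 are far left in pool 3, Notch2, Id3 and Id4 lie right there, and lens genes span -2.24 in pool 2 to 1.78 in pool 3.

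Other components of the pathway were looked up from a list of 56 genes, 34 of which had a named probe set. Of these, 19 were above the limit on all arrays, 7 on 1 or 2 and 8 on none, where 34.6% of all named genes were above it on all arrays and 49.9% on none. Of 6 measured genes of the proteases that release Notch, 2 were above the limit on all arrays, and Psen2 and Adam17 were on none. Psenen, a γ-secretase subunit, read 623, 626 and 498. Furin, which cleaves the receptor during its maturation, read 1117, 1187 and 1010.4. Adam10, which makes the cut that follows ligand binding, read 419, 460.0 and 479 and exceeded the limit only in pool 3. Its signals in pools 1 and 2 are also over that limit of 373. Rbpj itself, named after its values were seen, read 528, 442 and 396, above the limit in pools 1 and 3. In the nuclear complex, 6 of 10 genes were above the limit throughout, among them the acetyltransferases Kat2b (1366, 1448 and 1476) and Crebbp (658, 731 and 947) and the deacetylase Hdac1 (580, 615 and 599).

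Genes that handle Notch and its ligands were above the limit on all arrays for 5 of 7. The ubiquitin ligases Itch, at 1063, 947 and 1015, and Dtx1, at 1387, 878 and 1206, were among them, and Fbxw7, which marks the Notch fragment for degradation, read 436, 693 and 451. Of the Groucho corepressors that Hes proteins recruit, Tle3 read 879, 629 and 625. Tle5, a shortened member of the Groucho family, read 4147, 3074 and 5312. The E proteins that pair with Neurod factors were measured as well. Tcf4 read 1427, 2197 and 1167 and Tcf12 read 1638, 1828 and 1515, both highest in pool 2, as was Neurod1. Neurod2 and Neurod4 were highest in pool 1 instead. The range of Tcf12 was 1.21-fold, so its order carries little weight. Tcf3 read 186, 515 and 477. Of partners of Sox proteins, Pax6 was steady at 1633, 1757 and 1823 and Ctnnb1, β-catenin, at 4211, 4812 and 4476, while Pou3f2 and Pou3f3 were on no array above the limit.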

How the data were processed

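Total RNA of 3 pools of wild-type P10 neural retina was measured on Affymetrix U74Av2 arrays, per the labels. The deposited table holds 1 linear intensity for each of 12488 probe sets on each array, and the software and genome build behind it were not given in the sources used here. Trimmed means (2% removed at each end) differed by 0.022% between arrays, under the 5% set as tolerance, so values were used as deposited. No detection call accompanies them.

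Symbols came from GEO's platform annotation, updated by Entrez number through RefSeq (GRCm38.p6), which changed no member symbol. Of 12422 non-control probe sets, 10833 had 1 symbol, 396 several and 1193 none here. The 66 control probe sets served only for the end ratio. A gene with several probe sets stands for the one with the highest mean in counts per gene. Values under 1 were set to 1 before log2, with Python 3.11.15, numpy 2.4.6 and pandas 2.3.3. Pearson's r of log2 signal over 12422 probe sets was 0.90, 0.88 and 0.87 between pools 1 and 2, 1 and 3, and 2 and 3, across genes that are not independent replicates. Calculations were tested on simulated data. With 1 group no test between conditions exists, and the SDs measure the spread between these pools only. The labels do not say whether mice were shared between pools.

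The members and lists were chosen with earlier results of these data known. Every member is named, and of each pathway role the first 3 genes above the limit on all arrays. Outside this rule, Psen2, Adam10, Adam17, Rbpj, Tcf3, Pou3f2 and Pou3f3 were also named. The alternatives changed the limit, the scaling (limma 3.58.1 for quantile normalization), the floor, the probe sets per gene and the pools kept.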

Additional observations from a re-analysis of the deposited data

How the results depend on the processing

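The counts against the background limit depended on the limit. With the 75th percentile of the background list, 25 probe sets and 23 genes were above it on all arrays, 20 probe sets were on none, and 10 had a range over 1 log2 unit. With the median of all probe sets as the limit the first 3 values were 23, 22 and 25. With the 95th percentile, 7 probe sets and 6 genes were above it on all arrays, and 7 of 12 probe sets above the mean limit were lowest in pool 3. The cause is the construction, since a lower limit passes more probe sets. Shares over all probe sets for these counts were computed only at the main limit. The counts at other limits therefore do not set the members against the array. Hes5 (161051_at), Notch1 (both sets) and Notch2 (101342_at) were among those above the 75th percentile on all arrays. Notch2 (101342_at) was also above the median limit on all arrays. Both Notch1 sets thus passed the 75th percentile, but 97497_at was lowest in pool 3 and 162204_r_at was highest there. With a limit from plain _at background probe sets only, an alternative chosen after seeing the data, 18 probe sets and 17 genes were above it on all arrays. This limit was 337, 293 and 286 in pools 1, 2 and 3, so pool 2 no longer had the highest. Notch2 (101342_at) was then above it on all arrays. Leaving out 1 pool at a time gave 16 to 17 probe sets and 15 to 16 genes on all arrays, and 39 to 41 probe sets on none. It gave 19 to 21 pathway genes, a median SD of 0.090 to 0.35, and 0 to 4 sets with a range over 1 log2 unit, the 0 without pool 3. Without pool 1 or pool 2, 13 and 12 of 19 probe sets above the mean limit were lowest in pool 3. Fewer pools can then be lowest, so this is not comparable with the count over 3 pools. The share over all probe sets was not computed for it. Median scaling, quantile normalization, either floor, averaged probe sets, plain _at sets and updated symbols kept every count within 1.5 times. The ranges of the 22 members above the limit on any array were recomputed as 306 values in all. They moved by more than their SD in 25, 22 of these on leaving out a pool and 3 with the floor at the limit. Changing the limit, averaging probe sets, keeping plain _at sets or updating symbols cannot change a range, so the 306 include values that could not move. Leaving out pool 1, 2 or 3 moved 3, 5 and 14 of 22 ranges. No paired analysis was possible because all samples form 1 group. The number of arrays and signals near the limit restrict what can be said of the dim members.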
